A study of Homo sapiens with 2 samples.

Results

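The genes described here are 10 transcripts. DUSP1, DUSP2, DUSP4, DUSP5, DUSP6, SPRY1, SPRY2 and SPRY4 feed back on ERK signalling, and IER3 and PHLDA1 are early response genes listed with them. For brevity, all 10 are called feedback genes. They were taken by probe symbol, and all 10 had a value on both arrays, among 11057 named genes with a value on at least 1 array. The arrays compared 293T cells, an established human embryonic kidney line, after 6 h or 3 h in 10 µM Y27632 with untreated 293T cells given a time of 0 h. Y27632 inhibits ROCK1 and ROCK2, kinases that drive actomyosin contraction. Each treated time was measured on 1 dual-colour array, with treated RNA in Cy3 and untreated RNA in Cy5. All cells were grown in medium with 10% fetal bovine serum, and no vehicle is named for the untreated cells, so inhibitor, vehicle and handling cannot be told apart.

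The ERK pathway carries signals from growth factor receptors through RAS, RAF and MEK to the kinase ERK. Active ERK induces transcripts of its own inhibitors, which then limit the signal. The DUSP phosphatases listed here remove the phosphates that activate MAP kinases, and Sprouty proteins act farther upstream, between receptors and RAF. These transcripts are short-lived and are widely read as an output of the pathway. Phosphorylated ERK was not measured here.

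Every value below is the deposited log ratio of the 2 channels, read as log2. No source used here states the log base or the numerator. A negative value therefore stands for less transcript after Y27632 if treated cells are the numerator, and for more if untreated cells are. Signs are reported as deposited and are not called a rise or a fall. No array was repeated and no dyes were swapped, so no p-value or standard error between samples exists, and a dye effect and the treatment cannot be told apart. Whether both arrays used the same untreated RNA is not stated. The only error available for a gene was the SD between probes of the same gene, pooled over 572 genes with several probes, of 0.33 at 6 h and 0.31 at 3 h. The SD over all genes was little larger, 0.36 at each time. Probes of the same gene thus differed almost as much as different genes did, and a rank given below carries this error. Each of the 10 genes had 1 probe. A log ratio from bulk RNA cannot separate a small difference in every cell from a larger one in some cells.

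Of the 10 genes, 10 had a negative log ratio at 6 h and 10 at 3 h. Among all named genes, 47.3% of 10716 were negative at 6 h and 47.5% of 10810 at 3 h, and 36.3% of the 10469 genes with both values were negative at both times. The genes were proposed with earlier results of these arrays known, so their common sign is a description and not independent evidence. Their median was −0.28 at 6 h and −0.335 at 3 h, against a median of 0.02 over all named genes at each time. None of the 10 reached a 1.5-fold difference, a size of 0.585 in log2, at either time. Over all genes 4.24% were that far out on the negative side and 5.63% on the positive side at 6 h, and 4.49% and 4.88% at 3 h.

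**Figure D1:**
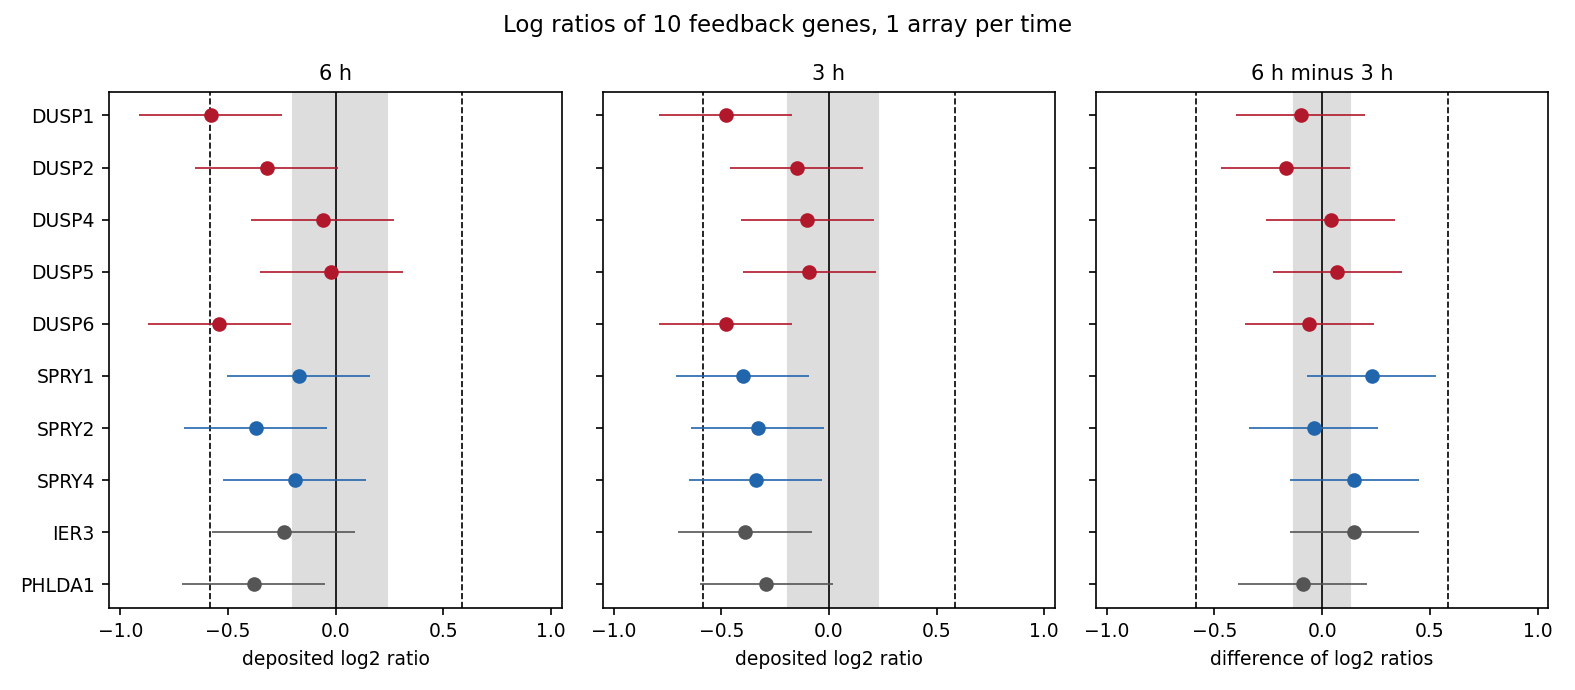
Deposited log2 ratios of the 10 genes at 6 h, at 3 h and as the difference of both (horizontal axes), with bars of 1 SD between probes of other genes, the middle 50% of all named genes in grey and 1.5-fold as dashed lines. All points at 6 h and 3 h lie left of 0, and DUSP1 and DUSP6 lie farthest out.

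DUSP1, DUSP6 and SPRY2 were the members farther from 0 than the within-gene probe SD at both times. Their upstream sequences are shown for that reason, from the RefSeq promoter table of GRCh38.p14, as the 250 bases before the annotated start read 5′ to 3′ on the gene's strand, which is the minus strand for each. The windows are chr5:172771196-172771445 for DUSP1, chr12:89352502-89352751 for DUSP6 and chr13:80341127-80341376 for SPRY2. The table held such a window for 7 of the 10 genes. Capitals mark matches, on either strand, to any of 6 motifs. These were TGACG, the core of the cAMP response element that the factor CREB binds, and TGANTCA, the element that AP-1 dimers of FOS and JUN bind. The search also covered CCGGAAG, a sequence bound by ETS factors such as the ERK target ELK1, and the CArG box bound by SRF. The remaining motifs were TATAAA, which marks many inducible promoters, and the CCAAT box.
DUSP1: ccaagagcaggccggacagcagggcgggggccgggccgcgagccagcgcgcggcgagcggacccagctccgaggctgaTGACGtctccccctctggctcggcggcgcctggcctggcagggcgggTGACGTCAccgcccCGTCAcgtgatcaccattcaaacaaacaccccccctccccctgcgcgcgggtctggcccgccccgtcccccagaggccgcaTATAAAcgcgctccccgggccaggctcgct
DUSP6: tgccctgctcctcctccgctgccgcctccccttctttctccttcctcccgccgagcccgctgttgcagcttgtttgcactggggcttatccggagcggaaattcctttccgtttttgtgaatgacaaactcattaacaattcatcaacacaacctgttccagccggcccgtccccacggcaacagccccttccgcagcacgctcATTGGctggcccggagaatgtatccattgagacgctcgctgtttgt
SPRY2: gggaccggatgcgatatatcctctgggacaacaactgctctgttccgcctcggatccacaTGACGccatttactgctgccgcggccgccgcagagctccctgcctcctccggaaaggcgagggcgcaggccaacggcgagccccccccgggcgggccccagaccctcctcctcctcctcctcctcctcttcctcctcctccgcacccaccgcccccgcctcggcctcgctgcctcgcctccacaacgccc
The DUSP1 window held TGACG at 4 places, from 172 to 168, 125 to 121, 122 to 118 and 111 to 107 bases before the start. The middle pair of these overlap on opposite strands as the palindrome TGACGTCA. It also held TATAAA from 30 to 25 bases before the start. The DUSP6 window held CCAAT on the opposite strand, 46 to 42 bases before the start, and the SPRY2 window held TGACG 190 to 186 bases before it. Over the 7 windows, TGACG was matched in 3 (DUSP1, SPRY2 and SPRY4), against 21.7% of 27303 promoters. With so few windows, 3 of 7 does not show a difference from that share, which was not tested. TATAAA was matched in 1 of 7, against 11.1%, and CCAAT in 1 of 7, against 33%. The AP-1, ETS and CArG motifs were each matched in 0 of 7, against 6.6%, 8.82% and 1.14% of all promoters. With shares this low, 0 of 7 is unremarkable. An exact string search of 250 bases does not show that the genes lack such sites. GC content was 74.4% in the DUSP1 window, 57.2% in that of DUSP6 and 70.4% in that of SPRY2. A match says only that these letters are in the window.

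Among the nuclear phosphatases, DUSP1 and DUSP2 lay farther from 0 than DUSP4 and DUSP5. DUSP1 (probe H200007984) dephosphorylates JNK, p38 and ERK and is itself an immediate early gene. It had −0.58 at 6 h and −0.48 at 3 h, sizes of 1.495-fold and 1.395-fold, and 4.24% and 6.62% of all genes lay lower. Its 6 h value was the farthest out of the 10 and was just short of the 1.5-fold size. DUSP2 (probe opHsV0400006147), a phosphatase known from activated lymphocytes, had −0.32 at 6 h and −0.15 at 3 h. DUSP4 (probe H200000600), which acts on ERK and JNK in the nucleus, had −0.06 at 6 h and −0.10 at 3 h. DUSP5 (probe H300008949), which is selective for ERK and holds it in the nucleus, had −0.02 at 6 h and −0.09 at 3 h. DUSP4 and DUSP5 thus lay inside the middle 50% of all genes at both times, which ran from −0.20 to 0.24 at 6 h and from −0.19 to 0.23 at 3 h. At 3 h, DUSP2 lay inside it as well.

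DUSP6 (probe H200008426) is the cytoplasmic member of the group and is selective for ERK. It had −0.54 at 6 h and −0.48 at 3 h, or 1.454-fold and 1.395-fold in size. Of all genes, 5.03% lay lower at 6 h and 6.62% at 3 h, and the value was 1.63 and 1.55 times the within-gene probe SD. At 3 h DUSP6 and DUSP1 had the same value. By distance in the pair of log ratios over both arrays, the 3 genes most like DUSP6 were BEND3, with −0.53 at 6 h and −0.46 at 3 h, ACAP3, with −0.53 and −0.50, and IP6K3, with −0.54 and −0.45. In all, 69 of 10354 other genes lay within 0.1 of DUSP6, so this likeness is shared by many genes.

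The 3 Sprouty genes lay close together at 3 h and farther apart at 6 h. SPRY1 (probe opHsV0400006844), needed in mouse for normal kidney branching through its restraint of the receptor RET, had −0.17 at 6 h and −0.40 at 3 h. SPRY2 (probe H200002753), the best studied Sprouty inhibitor of ERK activation by FGF, had −0.37 at 6 h and −0.33 at 3 h. SPRY4 (probe opHsV0400005452), a further inhibitor of receptor signalling to ERK, had −0.19 at 6 h and −0.34 at 3 h. All 3 were more than 1 within-gene probe SD from 0 at 3 h, and SPRY2 was at 6 h. The SD between the 3 genes was 0.11 at 6 h and 0.04 at 3 h, both below the SD between probes of one gene.

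IER3 and PHLDA1 are early response genes without phosphatase activity. IER3 (probe H200006251), a stress- and growth factor-induced regulator of cell survival, had −0.24 at 6 h and −0.39 at 3 h. PHLDA1 (probe H300002231), a pleckstrin homology-like protein whose transcript is induced by ERK activity, had −0.38 at 6 h and −0.29 at 3 h. Both lay below the 25th percentile of all genes on both arrays. Over the 10 genes, 6 lay below that percentile at 6 h and 7 at 3 h, against 24.1% and 25% of all genes by its definition and ties. More than 1 within-gene probe SD from 0 were 4 of the 10 at 6 h and 6 at 3 h, against 30.4% and 33% of all genes, and none was more than 2 such SDs away.

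Within the group, the values ran over 0.56 log2 units at 6 h, with DUSP1 lowest and DUSP5 highest. At 3 h they ran over 0.39 units, with DUSP1 and DUSP6 lowest and DUSP5 again highest. The largest gap between neighbours in the order was 0.16 at 6 h and 0.14 at 3 h, and the SD expected of a difference between 2 probes was 0.47 and 0.44. Neighbours in a sorted order lie close by construction, so gaps below that SD are no finding about these genes. The span of 10 values grows with their number, so it cannot be judged by the SD of a difference between 2 probes. The SD between the 10 genes was 0.19 at 6 h and 0.15 at 3 h, against 0.36 over all genes at each time. At both times it lay below the within-gene probe SD, 0.33 at 6 h and 0.31 at 3 h.

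**Figure D2:**
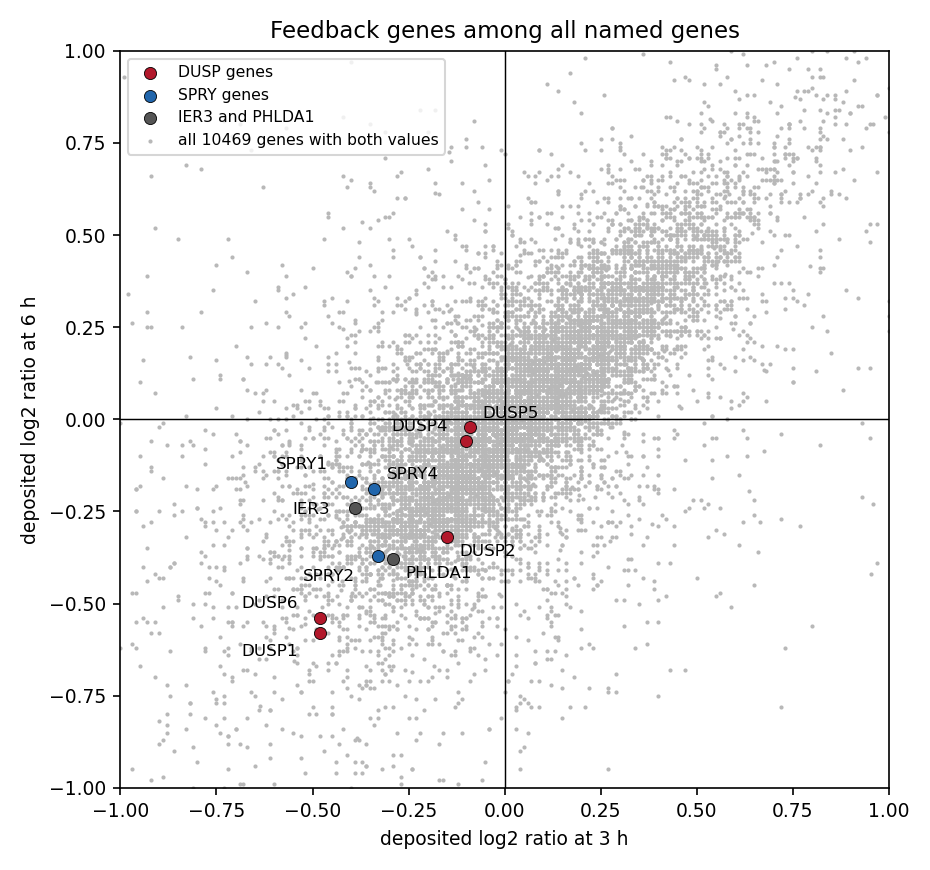
Log2 ratio at 6 h (vertical axis) against that at 3 h (horizontal axis) for the 10 genes, coloured by family, and for all 10469 genes with both values in grey, of which 230 lie outside the plotted range. All 10 genes lie below and left of 0, with DUSP4 and DUSP5 nearest to 0. Both axes may share the same untreated RNA.

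The difference of the log ratios, 6 h minus 3 h, was small for each gene. It was negative for 5 of the 10 and positive for 5, against 51.2% negative over 10469 genes, and its median was 0.00. SPRY1 had 0.23, the farthest from 0, followed by DUSP2 at −0.17 and SPRY4 and IER3 at 0.15 each. DUSP1 had −0.10, PHLDA1 −0.09, DUSP5 0.07, DUSP6 −0.06, and DUSP4 and SPRY2 0.04 and −0.04. Every one of these was below the within-gene probe SD of the difference, 0.30, which 19.9% of all genes exceeded. The SD of the difference over all genes was 0.29, no larger than that between probes. Time is confounded with array, so these cannot be told apart.

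Negative values were also frequent among olfactory receptor genes, most of which a kidney line is not expected to use, although this was not checked here. Of 128 olfactory receptor genes with a value at 6 h, 71.1% were negative, with a median of −0.22. At 3 h 69.3% of 150 were negative, with a median of −0.17. Among all named genes, 47.3% were negative at 6 h and 47.5% at 3 h. Against the median of the olfactory receptor genes in place of 0, a comparison chosen after the data were seen, 6 of the 10 feedback genes were negative at 6 h and 7 at 3 h, with medians of −0.06 and −0.165. Of all named genes, 24.1% lay below −0.20 at 6 h and 25% below −0.19 at 3 h, cut-offs near those olfactory receptor medians. The share of all named genes below the exact medians was not counted. Of the olfactory receptor genes themselves, as many lie below their median as above it, by definition. The counts of 6 and 7 of the 10 are to be read beside that even split as well. All 5 measured endothelial markers (PECAM1, CDH5, KDR, ESAM and VWF) were negative at both times, with medians of −0.42 at 6 h, over a range of −0.55 to −0.22, and −0.31 at 3 h, over −0.72 to −0.11. Of 3 measured blood cell markers 2 were negative at each time. Of 7 neuronal and adrenal markers, some of which 293T cells are known to express, 5 were negative at 6 h, with a median of −0.36, and 3 at 3 h, with a median of 0.04. The part of the olfactory receptor genes' shift in the values of the 10 genes was not tested. Kidney lineage markers of 293T were measured for 7 of 7 genes, with medians of −0.15 at 6 h and −0.38 at 3 h, and 5 and 6 negative. A log ratio does not show whether a gene is expressed, so the identity of the cells could not be checked from these values.

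**Figure D3:**
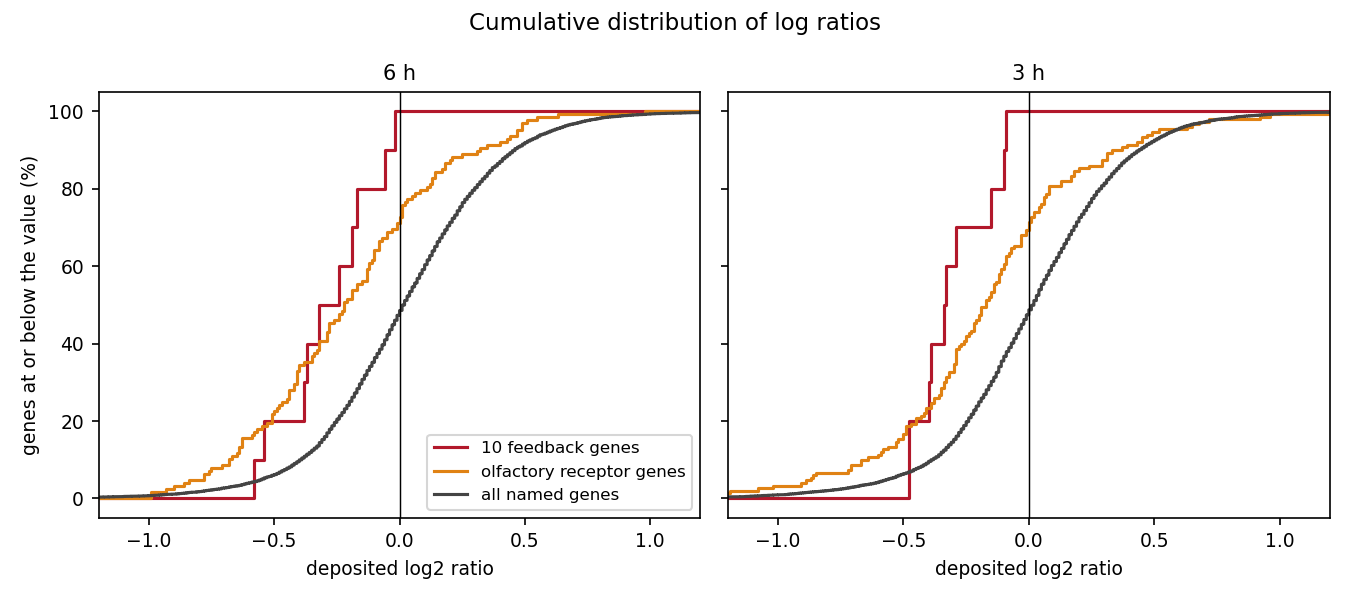
Share of genes at or below each log2 ratio (vertical axis, percent) for the 10 feedback genes, olfactory receptor genes and all named genes at 6 h and 3 h. The curve of the 10 genes reaches 100% left of 0, and the olfactory receptor curve also lies left of that of all genes around 0.

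Other phosphatases of the same family differed among themselves. Of the 5 further MAP kinase phosphatases, 3 were negative at 6 h and 4 at 3 h, with medians of −0.22 and −0.26. Of all genes, 47.3% were negative at 6 h and 47.5% at 3 h. DUSP7 and DUSP9, the cytoplasmic ERK phosphatases most like DUSP6, had 6 h values of −0.47 and −0.37, against 3 h values of −0.26 and −0.35. DUSP8, which acts on JNK and p38, had −0.22 at 6 h and −0.25 at 3 h, while DUSP10, with the same targets, had 0.07 and 0.14. DUSP16, which acts mainly on JNK, had 0.18 at 6 h and −0.39 at 3 h. The 10 measured atypical DUSPs had a median of 0.075 at 6 h, with 4 negative, and of 0.04 at 3 h, with 5 negative. STYX, a catalytically inactive relative that binds ERK, had 1.12 at 6 h and 0.37 at 3 h and was the 1 atypical gene past 1.5-fold. DUSP22 had −0.29 and −0.33, DUSP11, an RNA phosphatase, 0.30 and 0.19, and DUSP19 0.39 and 0.10.

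Other negative regulators of signalling from receptors to ERK were measured for 8 of 15 genes, with a median of −0.05 at 6 h (6 negative) and −0.075 at 3 h (5 negative). Over all genes the negative shares were 47.3% and 47.5%. IL17RD, an inhibitor of FGF signalling also named SEF, had −0.07 at 6 h and −1.04 at 3 h. SPRED2, a Sprouty relative that recruits neurofibromin to RAS, had −0.19 at 6 h and −0.18 at 3 h. PEA15, which holds ERK in the cytoplasm, had −0.12 and −0.13, and the RAS GTPase-activating gene RASA2 had −0.03 and 0.44.

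The cascade that the feedback acts on was measured for 10 of 18 genes, of which 2 were negative at 6 h and 4 at 3 h, against 47.3% and 47.5% of all genes. The 3 h count is near that of all genes. Its medians were 0.085 and 0.135. SHOC2, a scaffold that helps RAS activate RAF, had 1.08 at 6 h and 1.07 at 3 h and was the 1 member past 1.5-fold. The adaptor SHC1 had 0.49 and 0.41, the phosphatase gene PTPN11, which promotes RAS activation, 0.33 and 0.26, and MAP2K2, which phosphorylates ERK, 0.22 and 0.30. The other 8 genes of this list were not analysed here.

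Of 11 measured growth factor receptors, 8 were negative at 6 h and 6 at 3 h, or 72.7% and 54.5%, against 47.3% and 47.5% of all genes, so the 3 h share is near that of all genes. Their medians were −0.17 and −0.14. FGFR3 had −0.30 at 6 h and −0.71 at 3 h, ERBB2 −0.17 and −0.45, RET −0.35 and −0.15, and the HGF receptor gene MET 0.48 and 0.45. Of the ligands, 8 of 10 were negative at 6 h and 6 of 8 at 3 h, with medians of −0.28 and −0.20. IGF1 had −1.21 at 6 h and no value at 3 h. PDGFB had −0.42 at 6 h and −0.91 at 3 h, BTC, a ligand of the EGF receptor, −0.71 and −0.51, EGF −0.31 and −0.21, and IGF2 −0.43 and 0.07.

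Further transcripts known to depend on ERK were mostly negative. Of 18 genes, all measured, 16 were negative at 6 h and 15 at 3 h, with medians of −0.225 and −0.18. These shares, 88.9% and 83.3%, stand beside 47.3% and 47.5% of all genes, and 71.1% and 69.3% of olfactory receptor genes. Past 1.5-fold were FOS and EGR1 at 6 h and FOS, MYC and EPHA2 at 3 h, all on the negative side. Over all genes, 4.24% at 6 h and 4.49% at 3 h were that far out on that side. FOS, the AP-1 subunit, had −0.75 at 6 h and −0.87 at 3 h, IER2 −0.46 and −0.55, MYC −0.37 and −0.60, and the ephrin receptor gene EPHA2 −0.20 and −0.60. EGR1, chosen after its values were seen, had −0.68 at 6 h and 0.43 at 3 h. No test of the difference between lists exists with 1 array per time.

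Kinases and transcription factors that ERK acts on were mixed, with 5 of 11 negative at 6 h and 8 of 12 at 3 h and medians of 0.02 and −0.20. Over all genes, 47.3% were negative at 6 h and 47.5% at 3 h. ETS1 had −1.13 at 6 h and −0.22 at 3 h, and the kinase gene RPS6KA2 had −0.18 and −0.83. ELK4, a partner of SRF, had 0.49 at 6 h and 0.87 at 3 h, and RPS6KA3 had 0.37 and 0.27. ELK3, chosen after its values were seen, had no value at 6 h and −0.81 at 3 h. The parallel JNK and p38 cascades had a median of 0.03 at 6 h and one of 0.06 at 3 h, with 6 of 13 and 4 of 12 genes negative. MAP2K3, an activator of p38, had −0.38 at 6 h and −0.39 at 3 h, and MAP3K7 had 0.32 and 0.20. The p38 gene MAPK11 had −0.43 at 6 h and −0.20 at 3 h, and MAPK13, also a p38 gene, had 0.05 and 0.50. MAP2K6, a further activator of p38 chosen after its values were seen, had 0.76 at 6 h and no value at 3 h.

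**Figure D4:**
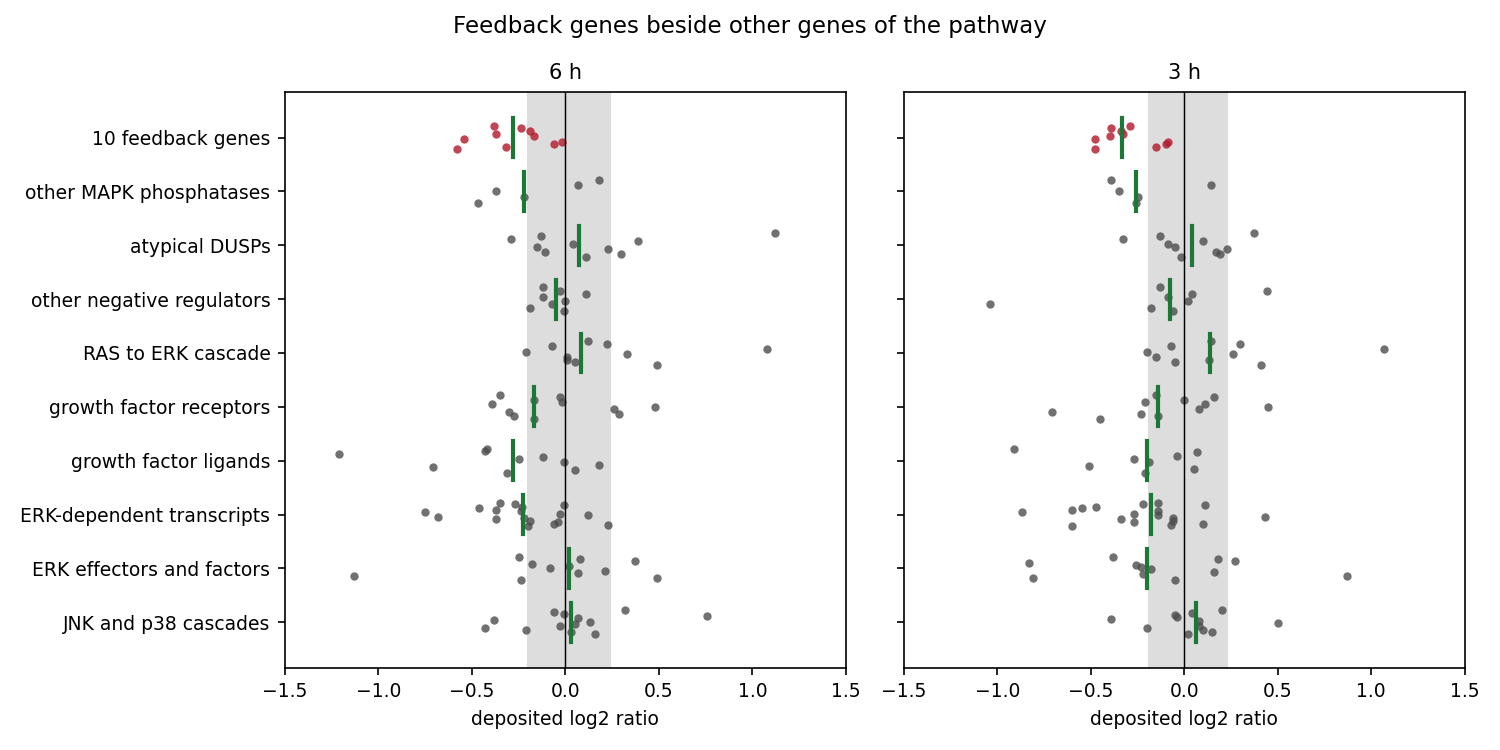
Log2 ratios of single genes (points) and list medians (green bars) for the 10 feedback genes and 9 other lists of the pathway at 6 h and 3 h, with the middle 50% of all named genes in grey. The feedback genes and ERK-dependent transcripts lie mostly left of 0, and the RAS to ERK cascade has 2 genes left of it at 6 h and 4 at 3 h.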

How the data were processed

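RNA was extracted with ISOGEN, amplified by an amino allyl procedure and coupled to Cy5 or Cy3, per the labels' protocols. Groups follow the source name of the Cy3 channel, because both array titles read control. The deposited table held 1 log ratio per probe and array, read here as log2, to 2 decimals, and each array had a median of 0. For the authors' background correction, normalization, spot filter, log base and numerator, each is not given in the sources used here. In base 10, 1 SD of all probes at 3 h would be a 2.39-fold difference, and in base 2 it is 1.30-fold, so base 2 was assumed, and natural logarithms remain possible. Of 24267 probes, 13395 had a gene symbol in the platform annotation, of which 2446 were updated through RefSeq synonyms (GRCh38.p14). A gene was the mean over its probes, with no filter, pseudocount or further scaling. No spot intensities were used. Having 1 array per time and 1 probe for each of the 10 genes limits the precision. Values were summarised with Python 3.11.15 and pandas 2.3.3, and the summary was tested on simulated data. The simulated shifts were larger than any value of the 10 genes and the noise was below the within-gene probe SD. That test therefore checks the code and not whether values of this size can be told from noise.

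The members and all gene lists were chosen with earlier results of these data known. All 10 members are named. In each other list of the pathway, up to 4 genes with the largest absolute mean of both log ratios, ties at the last place included, and any gene at least 1 unit from 0 are named, together with the 3 genes nearest to DUSP6, and exceptions are identified. With 1 array per time, no difference was tested. Alternatives changed the probe summary, the centring, the symbols, the log base and the size.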

Additional observations from a re-analysis of the deposited data

Results flagged for a closer look

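Of the genes named with values, 4 changed sign between both arrays, and none of the 10 feedback genes did. The difference, 6 h minus 3 h, was −1.11 for EGR1, 0.57 for DUSP16, −0.50 for IGF2 and −0.47 for RASA2. It was not tested, for want of a repeat, and IGF2 at 3 h (0.07) and RASA2 at 6 h (−0.03) lay near 0.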

How the results depend on the processing

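The medians of the 10 genes at 6 h and 3 h kept their sign under all alternatives run, and ranged from −0.30 to −0.06 and from −0.355 to −0.165. All 10 stayed negative at both times with another probe summary, the listed symbols, centring on all named genes or centring within each series of probe names, the last of which was chosen after seeing the data. Each of the 10 genes had 1 probe, so another probe summary could not change its value. Centring on all named genes, with a median of 0.02 at each time, could only lower the values. The listed symbols gave each gene the same probe. For the probe series that hold the 10 genes, medians ran from −0.02 to 0.04, too small to turn the sign of any of the 10 in its own series. None of these settings is therefore a check of the sign. With centring on the olfactory receptor genes, also chosen after seeing the data, 6 were negative at 6 h and 7 at 3 h. Near those cut-offs, 24.1% of all named genes lay below −0.20 at 6 h and 25% below −0.19 at 3 h. Of the olfactory receptor genes, as many lie below their own median as above it, by definition. The count past 1.5-fold at 6 h, 0 as reported, was 1 with centring on all named genes, 1 with centring within probe series and 2 in natural logarithms. At 3 h it was 2 in natural logarithms. The 1 gene was DUSP1 under both centrings, and the 2 genes were DUSP1 and DUSP6 at both times. No paired analysis was possible because each time has 1 array. Without spot intensities, signal over background could not be set beside any value.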
